A study of Mus musculus with 9 samples.

Results

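The 10 genes described here encode tumour necrosis factor (Tnf) and proteins that carry or restrain NF-kappaB signalling: Tnfaip3, Nfkbia, Nfkbiz, Nfkb1, Nfkb2, Relb, Birc3, Traf1 and Zc3h12a. They were taken by symbol, and each matched 1 of the 55359 genes in the count table. RNA was sequenced from tumour-bearing omenta of 9 C57BL/6 mice, stated to be 7 to 10 weeks old, which had received 500000 B16-OVA cells into the peritoneal cavity. The omentum is a fatty abdominal fold in which peritoneal tumour cells settle, and the B16-OVA melanoma line carries the antigen ovalbumin. On day 6 the mice were given OT-I T cells, whose receptor recognises ovalbumin, electroporated with IL-12 mRNA and delivered intraperitoneally (IP, 3 mice) or intravenously (IV, 3 mice), or they were given saline (PBS, 3 mice). Omenta were taken 18 h later, and libraries are named by group and mouse number (IP 2, IP 3 and IP 4, IV 1, IV 2 and IV 4, PBS 1, PBS 2 and PBS 3). T cells lacking the IL-12 mRNA were not among the groups, so what the T cells and what the mRNA contributed cannot be told apart.

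TNF is a cytokine of activated macrophages and lymphocytes, and its receptors start a ubiquitin-dependent kinase cascade that frees NF-kappaB dimers from IkappaB proteins. The dimers enter the nucleus and switch on inflammatory genes together with genes of their own inhibitors, which is why the set is known as a feedback circuit. IkappaB-alpha (Nfkbia) retrieves dimers from the nucleus, the ubiquitin-editing enzyme encoded by Tnfaip3 acts at the receptor complex, and the endoribonuclease encoded by Zc3h12a degrades inflammatory mRNAs. Nfkb1, Nfkb2 and Relb encode subunits, of which Nfkb2 and Relb serve the slower non-canonical branch.

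Promoter sequence was at hand in RefSeq windows (GRCm38.p6, from 250 bases before to 50 bases after a transcript start) for 7 of the 10 genes, in 10 windows. Relb, Nfkb1 and Nfkbiz were not among them. Both strands were searched for the kappaB consensus and for the shorter GGNNNTTCC, which overlaps it, and both were chosen with the sequences in view. The consensus was found in 5 of the 10 windows and the shorter motif in 7 of the 10, while 8.46% and 18.5% of all 32851 windows held them. Nfkb2 has 3 of the 10 windows and Tnfaip3 has 2, so these windows are not independent. By gene, the consensus was found for 3 of the 7 (Tnfaip3, Nfkbia and Nfkb2) and the shorter motif for 4 (those 3 and Tnf). The windows of Traf1, Birc3 and Zc3h12a held neither, which says only that these letters are absent from those windows. Stretches before the start are shown for the 4 genes with a match, and a link between the matches and the changes below was not tested. Capitals mark bases covered by either motif, each line reads 5′ to 3′ in the direction of the gene, and the last base lies next to the start.
Tnf: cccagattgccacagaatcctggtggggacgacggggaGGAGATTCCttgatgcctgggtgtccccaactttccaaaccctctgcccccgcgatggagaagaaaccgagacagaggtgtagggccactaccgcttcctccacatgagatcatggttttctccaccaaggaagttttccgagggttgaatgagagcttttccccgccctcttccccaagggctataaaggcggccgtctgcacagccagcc
Nfkbia: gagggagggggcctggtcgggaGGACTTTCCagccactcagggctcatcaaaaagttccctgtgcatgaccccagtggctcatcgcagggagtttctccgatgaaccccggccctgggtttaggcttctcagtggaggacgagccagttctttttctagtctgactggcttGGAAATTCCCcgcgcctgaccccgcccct
Tnfaip3: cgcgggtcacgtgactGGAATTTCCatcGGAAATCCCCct
Nfkb2: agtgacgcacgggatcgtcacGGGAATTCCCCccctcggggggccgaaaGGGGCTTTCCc
These stretches lie at chr17:35202008-35202257 (minus strand, Tnf), chr12:55492648-55492847 (minus strand, Nfkbia), chr10:19015411-19015450 (minus strand, Tnfaip3) and chr19:46304677-46304736 (plus strand, Nfkb2). In the stretches shown for Tnfaip3 and Nfkb2 the matches lie within the last 40 bases before the start, and the match in Tnf lies at positions -212 to -204 counted from it. Matches outside these stretches are not shown: Nfkbia has a further one at -211 to -203, and Tnfaip3 and Nfkb2 have further ones elsewhere in their windows.

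Total counts ranged from 7379798 (IV 2) to 44626843 (PBS 3). As a description over the 17123 tested genes, Pearson's r of IV 4 was 0.981 with PBS 3, 0.948 with IV 1 and 0.953 with IV 2, so IV 4 stood closer to a PBS library than to its own group. It was also at 0.957 to 0.96 with PBS 1, PBS 2, IP 2 and IP 3. IV 1 had r = 0.965 with IP 4 and 0.964 with IV 2, so the IV libraries were not a tight group. Markers of omental tissue and of the tumour were present in each group: the adipocyte gene Fabp4 lay at 167 to 210 CPM in IP, 276 to 428 in IV and 207 to 307 in PBS, the mesothelial gene Upk3b at 19.5 to 32.2, 38.6 to 45.1 and 27.3 to 45.7, and the melanosome gene Pmel at 3820 to 4350, 5280 to 7460 and 7570 to 7740. CPM are counts scaled to library size with TMM factors, and each difference was tested with edgeR's quasi-likelihood test over all tested genes, with p-values adjusted by Benjamini and Hochberg and a threshold of 0.05. Upk3b does not stand for its list: of 7 mesothelial markers 1 was higher in IP against PBS and 2 were lower (0 to 3 with 1 library left out). The higher one, Msln, was at 22.2 to 34.8 CPM in IP, 13.6 to 18.3 in IV and 14 to 17.5 in PBS.

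After IP delivery all 10 genes rose against PBS, with log2 fold changes from 0.80 (Nfkb1) to 3.67 (Tnf), and the 3 IP libraries lay above the 3 PBS libraries for each of them. Of all tested genes 32.9% were called in this comparison, 18.7% as higher and 14.2% as lower, and the IP libraries all lay above PBS for 28.4% and all below it for 24.8%. After IV delivery 7 of the 10 rose against PBS (10.4% of all tested genes rose), with changes from 0.27 to 2.12 over the 10, and 0 fell (5.66% of all tested genes fell). For 7 of the 10 the IV libraries all lay above PBS (16.5% of all tested genes), with overlap for Tnfaip3, Nfkb1 and Nfkb2. In IP against IV 4 of the 10 were higher (5.93% of all tested genes were) and 0 were lower (4.47% were), and for 8 of the 10 the groups did not overlap (17.9% of all tested genes had IP above IV without overlap). The median log2 fold change of the 10 was 1.47 in IP against PBS, 0.71 in IV against PBS and 0.59 in IP against IV, beside medians of 0.02, 0.04 and -0.02 over all tested genes. The comparisons with PBS share the same 3 PBS libraries. In bulk tissue, a change in the number of cells that express a gene and a change in RNA per cell cannot be told apart.

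Some of these counts moved with the library or the scaling. Without IV 2, 0 of the 10 were called higher in IV against PBS, without PBS 1 or PBS 2 it was 1, without IP 2, IP 3 or IP 4 it was 2, and without IV 4 it was 4. The count in IP against IV was 2 without IP 2, IP 3, IP 4 or IV 1. Scaling by library totals alone moved the median of all genes to -0.15 in IP against PBS and to -0.12 in IP against IV. The higher genes then made up 40.9% of all calls in IP against PBS (56.8% with TMM), 54.6% in IV against PBS (64.8% with TMM) and 41.0% in IP against IV (57.0% with TMM). In that scaling the median of the 10 genes was 1.29 in IP against PBS, and 9 of the 10 were called.

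**Figure D1:**
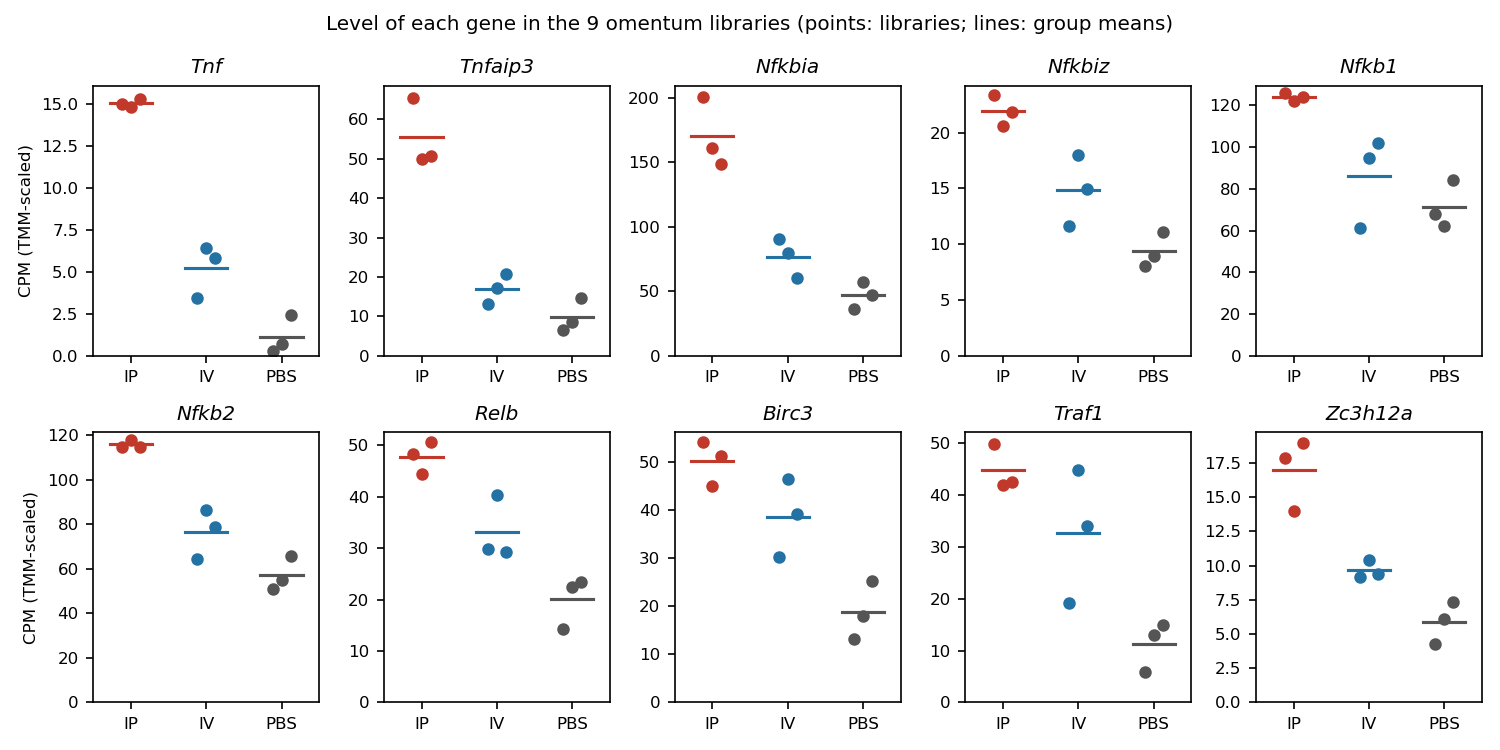
Level of each of the 10 genes in CPM (vertical axes, from 0) in the IP, IV and PBS libraries, with points for single libraries and lines for group means. IP lies above PBS in each panel, and the IV points overlap with IP for Birc3 and Traf1.

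Tnf itself had the largest fold change of the 10. It stood at 15.0, 14.8 and 15.3 CPM in IP 2, IP 3 and IP 4, at 3.42, 6.40 and 5.82 CPM in IV 1, IV 2 and IV 4, and at 0.273, 0.691 and 2.44 CPM in PBS 1, PBS 2 and PBS 3. The groups were in the order IP, IV, PBS without overlap, the IP libraries differed little among themselves, and PBS 3 stood well above the other PBS libraries. Behind these levels were 349 to 456 counts in IP, 48 to 255 in IV and 10 to 120 in PBS. The mean level of Tnf was 15.0 ± 0.28 CPM in IP against 1.13 ± 1.15 CPM in PBS (SD, n = 3 each), a rise of 3.67 ± 0.58 on the log2 scale (SE; edgeR adjusted p = 0.000803), and of 5.01 without PBS 3. In IV it averaged 5.21 ± 1.58 CPM, a rise of 2.12 ± 0.57 over PBS (edgeR adjusted p = 0.0313), and of 3.45 without PBS 3. That call was lost without PBS 1, PBS 2, IP 2, IP 3, IP 4, IV 2 or IV 4 (adjusted p 0.0518 to 0.118). It was lost in 9 of 18 settings when other methods, scalings and filters are counted too. IP exceeded IV by 1.55 ± 0.54, which did not pass (edgeR adjusted p = 0.0972). This difference passed in 5 of the 18 settings, among them without PBS 1 (0.0316) and without PBS 3 (0.00905). In the other 13 it did not pass (adjusted p up to 0.366). Over the 18 settings the log2 fold change of Tnf ran from 3.21 to 5.01 in IP over PBS. It ran from 1.65 to 3.45 in IV over PBS and from 0.94 to 1.69 in IP over IV.

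Tnfaip3 and Nfkbia, the classical inhibitors of the circuit, separated the routes most clearly. Tnfaip3 was at 65.5, 50 and 50.7 CPM in the IP libraries, at 13.2, 17.1 and 20.8 CPM in IV 1, IV 2 and IV 4, and at 6.64, 8.48 and 14.8 CPM in the PBS libraries. IP stood apart from both other groups, and IV 1 fell below PBS 3. The rise in IP was 2.47 ± 0.29 over PBS (edgeR adjusted p = 0.000126) and 1.70 ± 0.28 over IV (adjusted p = 0.00457). IV differed from PBS by 0.77 ± 0.28 (adjusted p = 0.0907), and by 1.17 without PBS 3, when it passed (adjusted p = 0.00882). Nfkbia was at 201, 161 and 149 CPM in IP, at 90.8, 80.0 and 60.2 CPM in IV and at 36.3, 57.5 and 47.2 CPM in PBS. Its groups did not overlap, although IV 4 exceeded PBS 2 only narrowly. Nfkbia rose by 1.86 ± 0.21 in IP over PBS (edgeR adjusted p = 9.5e-05) and was higher by 1.15 ± 0.20 in IP than in IV (adjusted p = 0.00624). Its rise in IV over PBS, 0.71 ± 0.20 (edgeR adjusted p = 0.0376), was not called without PBS 1, PBS 3, IP 2, IP 3, IP 4, IV 1 or IV 2 (adjusted p 0.051 to 0.153). That call was lost in 8 of 18 settings when other methods, scalings and filters are counted too.

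Nfkbiz, which encodes a nuclear IkappaB protein that helps induce secondary response genes such as Il6, changed less. Its level was 23.4, 20.6 and 21.8 CPM in IP, 11.6, 18.0 and 14.9 CPM in IV and 8.08, 8.91 and 11.1 CPM in PBS. The 3 groups were again ordered IP, IV, PBS without overlap, with IV 1 close to PBS 3. Nfkbiz rose by 1.23 ± 0.19 in IP over PBS (edgeR adjusted p = 0.000621) and by 0.65 ± 0.19 in IV over PBS (adjusted p = 0.0409), and IP against IV did not pass (0.58 ± 0.19, adjusted p = 0.0778). The IV call was lost without PBS 1, PBS 2, IP 2, IP 3, IP 4, IV 2 or IV 4 (adjusted p 0.051 to 0.166). With other methods, scalings and filters counted too, it was lost in 14 of 18 settings. Zc3h12a, whose product is known to degrade Il6 and Nfkbiz mRNA, was at 17.9, 14.0 and 19.0 CPM in IP, at 9.20, 10.4 and 9.40 CPM in IV and at 4.26, 6.07 and 7.34 CPM in PBS. Its IV libraries were close together and lay between the other groups. Zc3h12a rose by 1.53 ± 0.21 in IP over PBS (edgeR adjusted p = 0.000359), by 0.71 ± 0.21 in IV over PBS (adjusted p = 0.0481) and by 0.82 ± 0.21 in IP over IV (adjusted p = 0.0349). The call in IV was lost without any 1 library other than PBS 3 (adjusted p 0.0515 to 0.175), and the call in IP over IV without IP 2, IP 3, IP 4, IV 1 or IV 2 (adjusted p 0.0551 to 0.137). Over all 18 settings these 2 calls of Zc3h12a were lost in 15 and 8.

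The subunit genes Nfkb1 and Nfkb2 had the smallest changes of the 10 against PBS. Nfkb1, which encodes the precursor of a canonical subunit, was at 126, 122 and 124 CPM in IP, at 61.1, 95.0 and 102 CPM in IV and at 68.1, 62.0 and 84.4 CPM in PBS. The IP libraries lay closely together, while IV spanned the PBS range and IV 1 was the lowest of the 9. Nfkb1 rose by 0.80 ± 0.19 in IP over PBS (edgeR adjusted p = 0.00764, and 0.0522 with library totals alone). It did not pass in IV over PBS (0.27 ± 0.19, adjusted p = 0.368) or in IP over IV (0.53 ± 0.19, adjusted p = 0.101, and 0.0335 without IV 4). Nfkb2, the precursor gene of the non-canonical branch, was at 115, 118 and 115 CPM in IP, at 64.4, 86.7 and 78.7 CPM in IV and at 51.2, 54.9 and 65.8 CPM in PBS. Only IV 1 kept the IV group from lying wholly above PBS. The rise of Nfkb2 was 1.02 ± 0.14 in IP over PBS (edgeR adjusted p = 0.000313) and 0.60 ± 0.14 in IP over IV (adjusted p = 0.0209), the second lost without IP 2, IP 3, IP 4 or IV 1 (0.0623 to 0.0841). In IV over PBS it was 0.42 ± 0.14 (edgeR adjusted p = 0.0672) and passed without PBS 3 (0.0393) or IV 1 (0.0381). Nfkb2 overlaps exons of genes on the other strand, among them Psd, and the strand setting of the counting is not given, so a share of its counts could belong to them.

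Relb encodes the partner of the processed Nfkb2 product. It was at 48.3, 44.4 and 50.7 CPM in IP, at 29.9, 40.4 and 29.2 CPM in IV and at 14.3, 22.5 and 23.4 CPM in PBS. IP, IV and PBS did not overlap, and PBS 1 was the lowest library. Relb rose by 1.25 ± 0.20 in IP over PBS (edgeR adjusted p = 0.000775) and by 0.71 ± 0.20 in IV over PBS (adjusted p = 0.0341), while IP over IV, 0.54 ± 0.20, did not pass (adjusted p = 0.114). Without PBS 1, PBS 2, IP 2, IP 3, IP 4 or IV 2 the IV call was lost (adjusted p 0.0552 to 0.126). Counting other methods, scalings and filters, it was lost in 9 of 18 settings.

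Birc3 and Traf1, which encode an inhibitor-of-apoptosis ubiquitin ligase and an adaptor of TNF receptor complexes, were the members in which the IP and IV groups overlapped. Birc3 was at 54.2, 45.2 and 51.4 CPM in IP, at 30.3, 46.6 and 39.3 CPM in IV and at 13.3, 18.1 and 25.4 CPM in PBS. IV 2 exceeded IP 3, and the IV libraries were above PBS. Birc3 rose by 1.40 ± 0.23 in IP over PBS (edgeR adjusted p = 0.000986) and by 1.02 ± 0.23 in IV over PBS (adjusted p = 0.0158), the second not called without PBS 1 (0.0599), PBS 2 (0.06) or IV 2 (0.0625). Traf1 was at 49.9, 42.0 and 42.6 CPM in IP, at 19.2, 44.8 and 34.1 CPM in IV and at 5.95, 13 and 14.9 CPM in PBS. IV 2 reached the IP levels, whereas IV 1 lay nearer to PBS. Traf1 rose by 1.99 ± 0.35 in IP over PBS (edgeR adjusted p = 0.00147) and by 1.52 ± 0.35 in IV over PBS (adjusted p = 0.0167), the second not called without PBS 2 (0.0562) or IV 2 (0.0662). This IV call of Traf1 was lost in 4 of 18 settings when other methods, scalings and filters are counted too. IP and IV differed by 0.38 ± 0.23 for Birc3 (edgeR adjusted p = 0.336) and by 0.47 ± 0.34 for Traf1 (adjusted p = 0.437), which neither passed nor shows that the routes act alike. Birc3 has a close paralog, Birc2, with which reads can be shared.

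**Figure D2:**
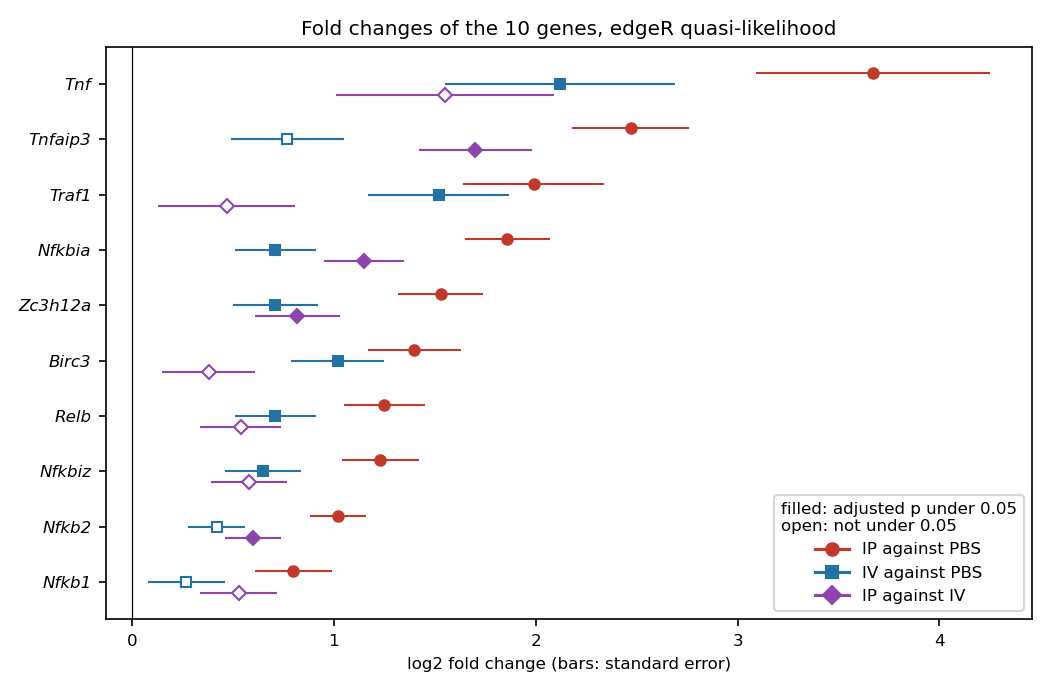
Log2 fold changes of the 10 genes (horizontal axis, bars are standard errors) in IP against PBS, IV against PBS and IP against IV, with filled symbols for adjusted p under 0.05. Tnf is at 3.67 in IP against PBS, and Tnfaip3 and Nfkbia have the filled IP against IV values farthest from 0, at 1.70 and 1.15.

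Within groups the libraries differed in a shared way. PBS 3 was the highest PBS library for 9 of the 10 genes and PBS 1 the lowest for 9. IV 1 was the lowest IV library for 8 of the 10 and IV 2 the highest for 7, while IP 3 was the lowest IP library for 8. Each IP library exceeded every PBS library for 10 of the 10 genes, as 37.2%, 36.4% and 37.7% of all tested genes did in IP 2, IP 3 and IP 4. IV 4 and IV 2 also did so for 10 of the 10 (32.7% and 39.3% of all tested genes), and IV 1 for 7 (36.8%). In IV 4 the 10 genes were thus above PBS although its profile over all genes was nearest to PBS 3.

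Per kilobase of exon, Nfkbia was the most abundant of the 10 in each group, at 106 ± 17.1 CPM per kb in IP, 47.8 ± 9.63 in IV and 29.2 ± 6.57 in PBS (SD, n = 3 each; exon lengths from an older annotation than the one counted). Nfkb2 came next, at 25.3 ± 0.39, 16.7 ± 2.46 and 12.5 ± 1.66 CPM per kb. The lengths join the exons of all annotated transcripts, at 12061 bases for Nfkb1 and 4584 for Nfkb2, so the order depends on that annotation. Before division by length the mean of Nfkb1 was the higher of these 2, at 124 against 116 CPM in IP and 71.5 against 57.3 in PBS. Tnf was at 9.18 ± 0.171 CPM per kb in IP, where it ranked 6 of 10, and at 0.692 ± 0.701 in PBS, where it was the lowest of the 10. In IP the order by mean was Nfkbia, Nfkb2, Relb, Nfkb1, Birc3, Tnf, Tnfaip3, Zc3h12a, Traf1 and Nfkbiz. The range of Birc3 (9.02 to 10.8) overlapped there with those of Nfkb1 (10.2 to 10.5) and Tnf (9.02 to 9.36), that of Tnfaip3 (6.92 to 9.06) with Tnf and Birc3, and that of Zc3h12a (4.86 to 6.61) with Traf1 (4.77 to 5.65). In PBS the order was Nfkbia, Nfkb2, Nfkb1, Relb, Birc3, Zc3h12a, Nfkbiz, Tnfaip3, Traf1 and Tnf, and from Nfkb1 downward each pair of neighbours overlapped apart from Birc3 with Zc3h12a. The order among overlapping genes is not resolved.

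The receptor complex upstream also changed. For this list and those below, the shares over all tested genes were 18.7% higher and 14.2% lower in IP against PBS. They were 10.4% and 5.66% in IV against PBS, and 5.93% and 4.47% in IP against IV. Counts near these shares say little about a list. Of 18 genes of the TNF receptor and ubiquitin complex 12 rose in IP against PBS and 0 fell, with 1 lower without IV 4, and the median log2 fold change was 0.54. The main TNF receptor gene Tnfrsf1a averaged 350 ± 4.99 in IP and 162 ± 5.71 in PBS, in CPM (1.11 ± 0.14, edgeR adjusted p = 0.000168), and the inducible receptor gene Tnfrsf1b averaged 108 ± 10.1 and 30.9 ± 12.9 CPM (1.80 ± 0.26, adjusted p = 0.000477). Rnf31, the catalytic subunit of the linear ubiquitin ligase, rose by 1.75 ± 0.17 (edgeR adjusted p = 4.36e-05), and Ripk1, the kinase scaffold of the complex, by 0.97 ± 0.12 (adjusted p = 0.000199). The kinase genes further down were among those that did not pass, with 0.25 ± 0.12 for Ikbkb, 0.25 ± 0.14 for Chuk and -0.32 ± 0.13 for Map3k7. In IV against PBS 8 of the 18 rose and 1 fell (Map3k7, edgeR adjusted p = 0.0423), and the rising count was 4 without PBS 1 or PBS 2 and 5 without IV 2. The fall of Map3k7 was not among the calls without any 1 of PBS 1, PBS 2, PBS 3, IP 2, IP 3, IP 4, IV 1 or IV 2, when 0 fell, and 2 genes fell without IV 4. The kinase genes were chosen after their values were seen. In IP against IV 2 of the 18 were higher, with 0 without IP 2, IP 3 or IP 4, 1 without IV 1 or IV 2, 5 without PBS 3 and 7 without IV 4.

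Of the 6 other genes of the NF-kappaB and IkappaB family all 6 rose in IP against PBS, with a median of 1.33, and in IV against PBS 4 rose (2 without PBS 1 or IV 2). Bcl3, a nuclear IkappaB protein, was at 67.5, 49.8 and 49.7 CPM in IP, at 23.0, 23.9 and 18.4 CPM in IV and at 5.16, 7.75 and 10.6 CPM in PBS. It rose by 2.82 ± 0.25 in IP over PBS (edgeR adjusted p = 3.53e-05), by 1.46 ± 0.25 in IV over PBS (adjusted p = 0.00468) and by 1.36 ± 0.24 in IP over IV (adjusted p = 0.00626). Nfkbie, another IkappaB gene, rose by 1.68 ± 0.20 in IP and by 1.12 ± 0.20 in IV (edgeR adjusted p = 0.000133 and 0.00534). The transactivating subunit genes Rela and Rel rose in IP over PBS by 0.93 ± 0.11 and 0.97 ± 0.18 (adjusted p = 0.000154 and 0.00175), and Rela was higher in IP than in IV by 0.62 ± 0.11 (adjusted p = 0.00709).

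Of 12 non-canonical pathway genes 8 rose in IP against PBS and 0 fell, with a median of 1.5. Cd40, a costimulatory receptor of antigen presenting cells, averaged 42.0 ± 1.6 in IP and 5.99 ± 4.07 in PBS, in CPM (2.79 ± 0.44, edgeR adjusted p = 0.000799). Tnfrsf12a, the receptor of the cytokine encoded by Tnfsf12, had mean CPM of 86.4 ± 9.46 in IP, 20.7 ± 6.53 in IV and 22.5 ± 8.23 in PBS, higher in IP than in PBS by 1.94 ± 0.28 (edgeR adjusted p = 0.000429) and than in IV by 2.07 ± 0.28 (adjusted p = 0.00175). Tnfsf12 rose by 1.23 ± 0.21 and Tnfrsf11a, the receptor gene of RANK ligand, by 1.76 ± 0.32 in IP over PBS (edgeR adjusted p = 0.0012 and 0.00164). In IV against PBS 7 of the 12 rose, and 3 without PBS 1, 2 without PBS 2 and 3 without IV 2, while 1 was lower without IV 4. In IP against IV 1 was higher, Tnfrsf12a (2 without PBS 3 or IV 1), and 2 were lower, the BAFF receptor gene Tnfrsf13c (-2.36 ± 0.51, edgeR adjusted p = 0.0156) and the lymphotoxin gene Ltb (-1.36 ± 0.38, adjusted p = 0.0485), both named after their values were seen. Without IP 2 or IP 3, 0 were lower, and without PBS 2, IP 4, IV 2 or IV 4 it was 1.

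Of 14 other negative regulators of the pathway 8 rose and 1 fell in IP against PBS, with a median of 0.44, and 0 fell without PBS 1, PBS 2, IP 2, IP 3 or IP 4. The gene that fell was Optn, a ubiquitin-binding adaptor (-0.42 ± 0.13, edgeR adjusted p = 0.0324), named after its value was seen. Usp18, which also restrains interferon signalling and is itself interferon-induced, had mean CPM of 398 ± 65.7 in IP, 159 ± 13.1 in IV and 61.3 ± 15.2 in PBS, a rise of 2.7 ± 0.21 in IP over PBS (edgeR adjusted p = 2.45e-05). Irak3, a kinase-like brake on Toll-like receptor signalling, rose by 1.79 ± 0.18 in IP over PBS, Tnfaip8l2 by 1.57 ± 0.23 and Tnip3, a binding partner of the Tnfaip3 product, by 2.36 ± 0.47 (edgeR adjusted p = 6.25e-05, 0.000507 and 0.00289). In IV against PBS 3 of the 14 rose and 0 fell, and 4 fell without IV 4. In IP against IV 2 were higher, with 1 without IP 2, IP 3 or IP 4 and 7 without IV 4.

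Of 9 mRNA decay factors related to Zc3h12a 4 rose in IP against PBS and 0 fell, with a median of 0.38. Zfp36, whose product binds AU-rich elements such as that of Tnf mRNA, was at 150, 120 and 111 CPM in IP, at 51.8, 47.8 and 43.9 CPM in IV and at 16.1, 22.5 and 25.2 CPM in PBS. The 3 groups were far apart. Zfp36 rose by 2.57 ± 0.19 in IP over PBS (edgeR adjusted p = 2.04e-05), by 1.17 ± 0.18 in IV over PBS (adjusted p = 0.00321) and by 1.41 ± 0.18 in IP over IV (adjusted p = 0.00127). The endoribonuclease gene N4bp1 rose by 1.43 ± 0.16 in IP over PBS (edgeR adjusted p = 8.27e-05) and was higher in IP than in IV by 0.94 ± 0.15 (adjusted p = 0.00425). Zc3h12d, a paralog of Zc3h12a, rose by 2.11 ± 0.37 in IP over PBS (edgeR adjusted p = 0.00154). Rc3h2, which encodes an RNA-binding Roquin protein, was higher by 0.38 ± 0.12 (adjusted p = 0.029), and was not called without PBS 1, PBS 3, IP 2, IP 3 or IP 4 (adjusted p 0.0552 to 0.136) or with library totals alone (0.154). The other paralogs Zc3h12b and Zc3h12c did not pass, at -0.17 ± 0.28 and -0.11 ± 0.30. In IV against PBS 2 of the 9 rose, and 1 without PBS 1.

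Of 22 other classical NF-kappaB target genes 21 had enough counts to be tested, Ccl20 having 0 counts in all 9 libraries. In IP against PBS 19 of the 21 rose and 0 fell, with a median of 2.84, in IV against PBS 8 rose (4 without PBS 1 or PBS 2, 5 without IV 2), with a median of 1.11, and 14 were higher in IP than in IV (8 without IP 2), with a median of 1.77. Ptgs2, the inducible prostaglandin synthase, had mean CPM of 57.7 ± 16 in IP, 4.84 ± 2.36 in IV and 0.748 ± 0.5 in PBS (6.20 ± 0.51 in IP over PBS, edgeR adjusted p = 2.7e-05, and 3.49 ± 0.44 in IP over IV, adjusted p = 0.00118). Gadd45b, a stress-response gene, averaged 58.6 ± 8.75, 21.0 ± 1.08 and 11.4 ± 2.79 CPM in IP, IV and PBS (2.36 ± 0.19 in IP over PBS, edgeR adjusted p = 2.68e-05). Bcl2l1, which encodes an anti-apoptotic protein, had mean CPM of 229 ± 35 in IP, 89.8 ± 8.63 in IV and 88.5 ± 7.04 in PBS. It rose by 1.37 ± 0.14 in IP over PBS and by 1.35 ± 0.14 in IP over IV (edgeR adjusted p = 6.38e-05 and 0.000581), with 0.02 ± 0.14 in IV over PBS (adjusted p = 0.936). Ier3, an early response gene, had the same order of values, at 71.4 ± 14.3, 20.7 ± 3.92 and 16.7 ± 4.22 CPM in IP, IV and PBS, with 2.10 ± 0.22 in IP over PBS and 1.77 ± 0.22 in IP over IV (edgeR adjusted p = 6.85e-05 and 0.00109).

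**Figure D3:**
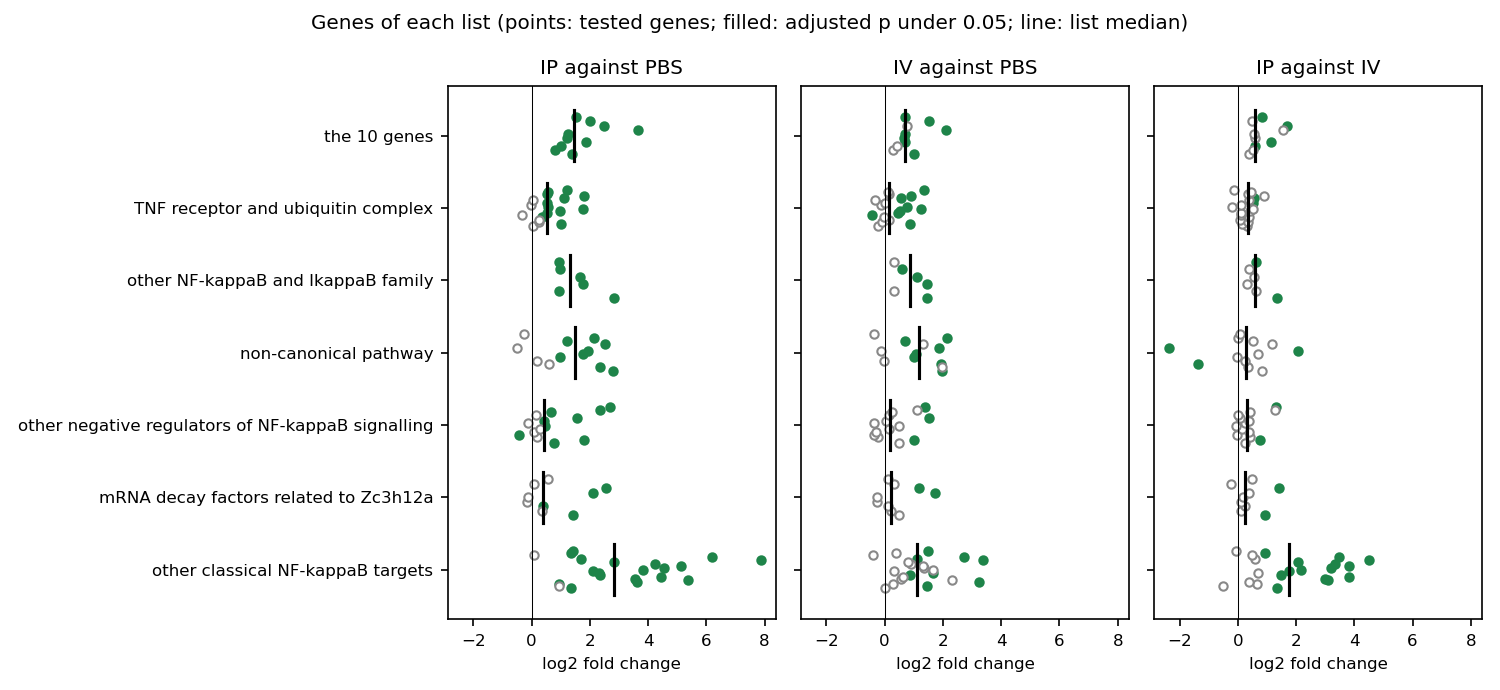
Log2 fold changes (horizontal axes) of the tested genes of each list in IP against PBS, IV against PBS and IP against IV, with filled points for adjusted p under 0.05 and lines for list medians. The list of other classical targets has medians of 2.84, 1.11 and 1.77, while the receptor complex has a median of 0.54 in IP against PBS.

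Markers of immune cells moved with the 10 genes between the treated and PBS groups. Over all tested genes 18.7% were higher and 14.2% lower in IP against PBS, and 10.4% and 5.66% in IV against PBS. The 15 monocyte and macrophage markers summed to 3670 to 3950 CPM in IP, 2800 to 4040 in IV and 1060 to 1840 in PBS, with 10 higher and 2 lower in IP against PBS (1 lower without PBS 1, PBS 3, IP 2 or IP 3) and 8 higher in IV against PBS (5 without PBS 1 or IV 2). The 15 T cell markers summed to 370 to 424 CPM in IP, 178 to 473 in IV and 67.1 to 162 in PBS, with 12 higher in IP against PBS and 12 in IV against PBS (3 without PBS 1, 5 without PBS 2, 2 without IV 2 and 6 without IV 4). The 12 neutrophil markers summed to 133 to 196 CPM in IP, 39.8 to 249 in IV and 11.4 to 26.1 in PBS, with 7 higher in IP against PBS (3 without PBS 1 or PBS 2), 2 higher in IV against PBS (0 without PBS 1, PBS 2, IP 3, IV 1 or IV 2, 1 without PBS 3 or IP 4, and 4 without IV 4) and the defining marker Ly6g under 1 CPM in each library. Their part in the rises against PBS was not tested. The 10 genes summed to 633 to 717 CPM in IP, 333 to 445 in IV and 209 to 297 in PBS, and these ranges did not overlap.

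Between the routes the sums of these 3 lists overlapped, but single markers differed, named here after their values were seen. The monocyte and macrophage sum is carried by a few abundant genes such as Lyz2, at 1730 to 2010 CPM in IP and 1300 to 2130 in IV. Cd14, a coreceptor for lipopolysaccharide, was at 107 to 156 CPM in IP and 8.58 to 32.6 in IV (2.85 ± 0.42, edgeR adjusted p = 0.00259), and the integrin gene Itgam at 163 to 233 and 64.1 to 134 CPM (1.15 ± 0.30, adjusted p = 0.0358). Csf1r, Cd68, Ly6c2 and Fcgr1 also had each IP library above each IV library without passing the test, as 17.9% of all tested genes had IP above IV. For Csf1r the lowest IP library was at 124 CPM and the highest IV library at 123. Mrc1, Timd4 and C1qa had each IP library below each IV library, also without passing (-1.15 ± 0.36, -1.24 ± 0.45 and -0.48 ± 0.23). Of all tested genes 13.5% had IP below IV without overlap. The scavenger receptor gene Cd163 was lower in IP (-2.23 ± 0.51, edgeR adjusted p = 0.02). Thus 2 of the 15 were higher and 1 lower in IP against IV, where 5.93% and 4.47% of all tested genes were. The higher count was 1 without IP 2, IP 3, IP 4, IV 2 or IV 4, 3 without IV 1 and 4 without PBS 1 or PBS 3, and the lower count was 0 without IP 2, IP 3 or IV 4 and 2 without PBS 2 or PBS 3. Of the 12 neutrophil markers the chemokine receptor gene Cxcr2 was higher, at 11.0 to 14.2 CPM in IP and 0.365 to 1.07 in IV (4.22 ± 0.45, edgeR adjusted p = 0.000625), with 2 higher without PBS 1, PBS 2 or PBS 3 and 2 lower without IP 2. Camp, Ngp, Mpo, Elane and Ltf went the other way without passing (-2.78 ± 1.34, -2.61 ± 1.70, -2.26 ± 1.29, -1.73 ± 1.12 and -1.64 ± 1.03). The median of the neutrophil markers in IP against IV was 0.08, so Cxcr2 does not stand for its list. Of the 15 T cell markers Cd4 was lower (-2.04 ± 0.42, edgeR adjusted p = 0.0121), with 0 lower without IP 2 or IP 3 and 1 higher without IV 4. Cd8a and Cd8b1 went the other way without passing (1.34 ± 0.54 and 0.57 ± 0.44). Cd8a was at 52.8 to 58.5 CPM in IP and 8.55 to 31.8 in IV, and Cd8b1 at 22.1 to 24.6 and 7.71 to 21.2. The part of these markers in the differences of Tnfaip3, Nfkbia, Nfkb2 and Zc3h12a between the routes was not tested. B cell markers ran the other way between the routes, at 44.0 to 71.4 CPM in IP, 143 to 526 in IV and 60.9 to 74.6 in PBS, with IV 2 highest, the library in which 7 of the 10 genes were highest within IV. In IV against PBS all 9 were higher (4 to 9 with 1 library left out), and in IP against PBS 0 were higher and 2 lower. All 9 B cell markers were lower in IP than in IV (5 without IP 3), and their part in the levels of Birc3 and Traf1 in IV was not tested. Melanoma markers summed to 13400 to 15100 CPM in IP, 18000 to 23400 in IV and 25200 to 28100 in PBS. Pancreatic acinar markers were highest in single libraries, at 17000 CPM in IP 4, 23100 in IV 1 and 4000 in IV 2. They were at 178 CPM in IP 2, 234 in IP 3, 9.56 in IV 4 and 13.2 to 20.5 in PBS. Each IP library thus lay above PBS, although 0 of the 10 tested markers were called in IP against PBS.

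**Figure D4:**
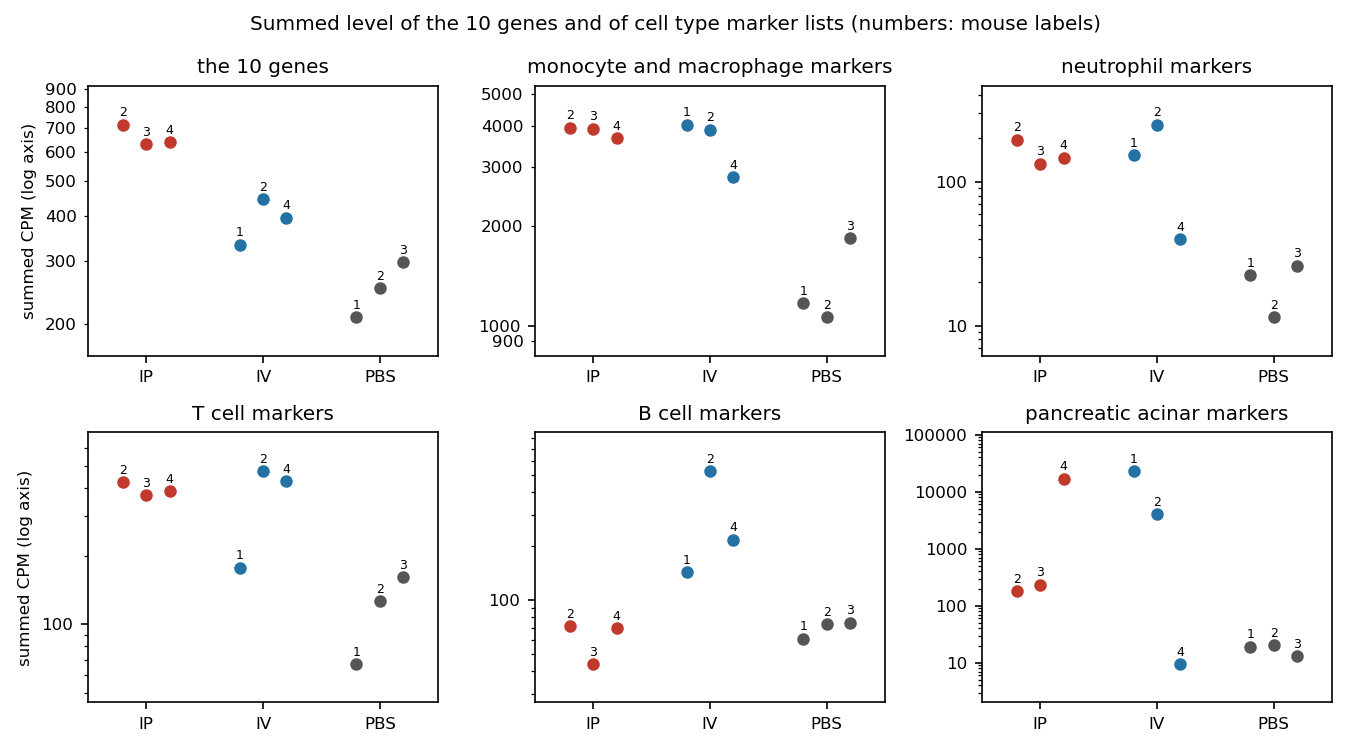
Summed CPM (log axes) of the 10 genes and of 5 marker lists in the IP, IV and PBS libraries, with mouse numbers beside the points. The sums of the 10 genes lie at 633 to 717 in IP and 333 to 445 in IV, and those of the monocyte and macrophage markers, in which abundant genes such as Lyz2 weigh most, at 3670 to 3950 and 2800 to 4040.

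Among the tested genes outside the set, those whose log2 CPM over the 9 libraries was most like the mean standardised level of the 10 genes were Lgmn (Pearson r = 0.997), Egr1 (0.995), Ier5 (0.994), H2-T-ps (0.994) and Serpinb6b (0.993). The libraries share their group structure, so these values are a description over 9 libraries. Lgmn, a lysosomal protease gene, had mean CPM of 396 ± 11.3 in IP, 260 ± 26.7 in IV and 182 ± 30.1 in PBS, and the immediate early gene Egr1 averaged 22.3 ± 0.957, 12 ± 3.35 and 5.97 ± 1.99 CPM. H2-T-ps has close relatives among class I genes, so its counts are uncertain. Within the set, r with the mean of the other 9 genes ran from 0.875 for Nfkb1 and 0.895 for Nfkbia to 0.990 for Nfkbiz.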

How the data were processed

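The authors deposited a table of whole-number counts for 55359 genes in 9 libraries, per the file headers 1 column per mouse, and a table of log2 CPM for 18833 genes, which equalled log2 CPM computed from the counts of those genes and their column totals to within 5e-14. STAR 2.7.9, featureCounts, limma and mm39 are named in the submitters' processing notes, and libraries were poly(A)-selected with a directional kit, per the labels' protocols. No source used here gives the annotation release or strand setting of the counting. Symbols came from GENCODE M21 (52083 genes matched by identifier without version), and promoter sequences from RefSeq on GRCm38.p6, an older build than mm39.

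The deposited counts went into edgeR 4.0.16 (R 4.3.3): filterByExpr on the groups (17123 genes left, the 10 members included), TMM scaling and 1 robust quasi-likelihood fit of the 9 libraries without covariates, with two-sided tests adjusted over all tested genes. Fold changes are first group over second, each SE was taken as the absolute log2 fold change over the root of F, and ± beside CPM is the SD over 3 libraries. Alternatives were DESeq2 1.42.0, limma 3.58.1 (voom, and on the deposited log2 CPM), other scalings and filters, and libraries left out in turn. The members, 15 gene lists and tests were chosen with earlier results of these data known. Beside the members, up to 4 genes per pathway list with the smallest p in IP against PBS and the one with the smallest p in IP against IV are named, and the 5 genes most correlated with the members. The p-values rest on the spread between these mice, estimated from all 9 libraries at once, so each comparison also uses the spread of the third group. In IV against PBS 7 members were called in this fit and 1 with only the 2 groups fitted. Scripts were tested on simulated counts with known changes. Same-numbered mice in different groups are not stated to be related.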

Additional observations from a re-analysis of the deposited data

Results flagged for a closer look

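For 4 of the 10 genes the effects of the routes against PBS differed by the test of the difference itself, IP against IV (edgeR's quasi-likelihood test). Of all tested genes 5.93% were called higher in IP against IV, and 17.9% had IP above IV without overlap. The log2 fold change was 1.70 for Tnfaip3 (adjusted p = 0.00457), 1.15 for Nfkbia (adjusted p = 0.00624), 0.82 for Zc3h12a (adjusted p = 0.0349) and 0.60 for Nfkb2 (adjusted p = 0.0209). For each of these 4 genes the 3 IP libraries lay above the 3 IV libraries. The calls of Tnfaip3 and Nfkbia held in each of the 18 alternative settings (adjusted p up to 0.0275 and 0.0364). Those of Zc3h12a and Nfkb2 were lost in 8 and 7 of the 18.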

How the results depend on the processing

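In IP against PBS the 10 calls held in 16 of 18 settings, with Nfkb1 lost with library totals (adjusted p = 0.0522) and with limma on the deposited log2 CPM (0.0506), and 3956 to 6569 genes were called with 1 library left out. In IV against PBS 7 members were called, but 4 with library totals, 4 with limma on the deposited log2 CPM, 3 with no filter, 1 with only the 2 groups fitted, and 0 to 8 with 1 library left out. That count was 5 with DESeq2 size factors, 5 with limma voom and 6 with the mouse number as a replicate block. All genes called there were 2753, 1210 with only the 2 groups and 980 to 4580 with 1 library left out. In IP against IV 4 members were called, 6 with DESeq2, 6 with limma voom, 5 with only the 2 groups fitted, 2 with library totals, 2 with limma on the deposited log2 CPM and 2 to 5 with 1 library left out. All genes called there were 1780, 2765 with DESeq2 and 673 to 2873 with 1 library left out. With the mouse number as a replicate block 2 members and 1134 genes were called in IP against IV, while correlations of deviations between same-numbered libraries ran from -0.40 to 0.10, so the numbers were not taken as pairs. Values near 0 changed sign. For Bcl2l1 in IV against PBS they were -0.01 with DESeq2 size factors, -0.05 with library totals, -0.01 with DESeq2, -0.05 with limma on log2 CPM, -0.02 with no filter and -0.05 to 0.09 with 1 library left out. For Tnfrsf12a in IV against PBS they were -0.36 to 0.17 with 1 library left out. For Tnfaip8l2 in IP against IV they were -0.05 with library totals, -0.03 with limma on log2 CPM, -0.10 with the block and -0.05 to 0.26 with 1 library left out. The cause was not tested. IV 2, with 7379798 counts, limits the depth, with 48 counts of Tnf.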

Other observations

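Ratios of counts within a library do not depend on the scaling of libraries. Nfkbia to Nfkb1 was 1.59, 1.31 and 1.20 in IP 2, IP 3 and IP 4, 1.49, 0.843 and 0.589 in IV 1, IV 2 and IV 4, and 0.533, 0.927 and 0.559 in PBS 1, PBS 2 and PBS 3. IP lay above PBS, and IV ran from the PBS range to the IP range, with IV 4 close to PBS 3. Nfkbia to Rela was 1.94, 1.68 and 1.49 in IP, 1.32, 1.33 and 0.919 in IV and 0.743, 1.15 and 0.814 in PBS, with IP above both other groups. Tnfaip3 to Nfkbia was 0.325, 0.311 and 0.341 in IP, 0.145, 0.213 and 0.346 in IV and 0.183, 0.148 and 0.314 in PBS, so that IV 4 and PBS 3 had the ratio of the IP libraries. Birc3 to Birc2 was 1.04, 1.01 and 1.02 in IP, 0.824, 0.938 and 0.825 in IV and 0.675, 0.684 and 0.932 in PBS, and Relb to Nfkb2 overlapped between the groups (0.376 to 0.44 in IP, 0.371 to 0.466 in IV and 0.28 to 0.41 in PBS). With 3 libraries a group an exact two-sided permutation test cannot go below 0.1, and over the 15 tests of 5 ratios no adjusted p was under 0.3.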
